A study of Caenorhabditis elegans with 6 samples.

Results

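A set of 9 genes known only by a sequence name each carried a row of 4 to 7 read clusters of ADR-1 CLIP. The genes were F58D5.5, K02F3.2, Y56A3A.2, M01H9.3, Y92H12BL.1, Y111B2A.12, Y38E10A.22, F40G9.17 and Y54E10BR.2. They were taken from the table of uniquely annotated significant clusters as genes without a gene name and with 4 or more clusters. They held 45 of its 636 clusters, and are 9 of the 315 gene names in it. All 9 are annotated as protein coding. The same count was reached by 5 further genes listed by a sequence name, which are not among the 9 (C35E7.6, Y65B4A.6, Y71F9AL.10, Y71F9B.6 and Y75B8A.7), and Y65B4A.6 has the symbol eif-4A3 in RefSeq. Both the clusters and the minimum of 4 were set on CLIP reads against input reads of these libraries, so the enrichment of the 9 genes is given as a description and not as a finding.

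ADR-1 is a nematode relative of the ADAR enzymes, which convert adenosine to inosine in double-stranded RNA. It binds double-stranded RNA, has no deaminase activity itself and affects where its partner ADR-2 edits. Structured RNA in 3' UTRs and introns, often formed by inverted repeats, is a known type of target for such proteins. Long duplexes can hold many molecules of a double-stranded RNA binding protein along their length.

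All libraries came from one genotype, 3xFLAG ADR-1 Caenorhabditis elegans, grown as whole mixed-stage populations on Escherichia coli OP50 at 20 °C and exposed to ultraviolet light at 3 J/cm2. RNA recovered with anti-FLAG beads gave 3 CLIP libraries, and a small share of each lysate gave 3 Input libraries. An untagged strain is not analysed here, so RNA in contact with ADR-1 and RNA held by the beads cannot be told apart. The labels do not say whether replicates were separate cultures. A p-value from a test over the replicates measures the spread between these libraries, which may be technical. The deposited p-values compare CLIP and Input reads within a single replicate and measure counting error only.

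CLIP totals recovered from the deposited statistics were 5776616, 5722346 and 5770672 reads in replicates 1, 2 and 3, and Input totals were 4158907, 2453498 and 4244800. The 636 clusters took 2.24%, 0.489% and 1.38% of the CLIP reads, and CLIP replicate 2 had the fewest reads in clusters. The recovered CLIP totals were nearly equal, and whether each is the depth of its own library is not known. The shares and CPM levels rest on these totals, and the scaled ratios on the quotient of Input and CLIP totals. No deposited count was 0. Of the 135 Input counts of the 45 clusters, 90 were 1 and the highest was 9, and a true 0 may stand as 1. Ratios below are log2 of CLIP over Input scaled for library totals, with 1 read added to each sum where clusters were pooled.

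Of the 45 clusters, 37 lay in 3' UTRs and 8 in introns. In 7 genes every listed cluster was in the 3' UTR, in M01H9.3 every listed cluster was in an intron, and Y56A3A.2 had 4 and 3. The 8 rows of 3' UTR clusters spanned 433 to 1117 bases with a median of 596. They ended 90 to 927 bases before the RefSeq end of the gene (median 382), with none of them reaching past it. The gap from the end of one 3' UTR cluster to the start of the next had a median of 46 bases over 29 pairs, from 4 to 443, and was under 100 bases in 21 pairs. The 6 neighbouring pairs of intron clusters lay farther apart, with a median gap of 473.5 bases and a range of 15 to 2706. For the other 26 genes with 4 or more clusters, the median gap was 57 bases over 83 pairs in 3' UTRs and 278 over 11 pairs in introns. The median length of a 3' UTR cluster was 74 bases in the 9 genes and 82 in the other 26.

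**Figure D1:**
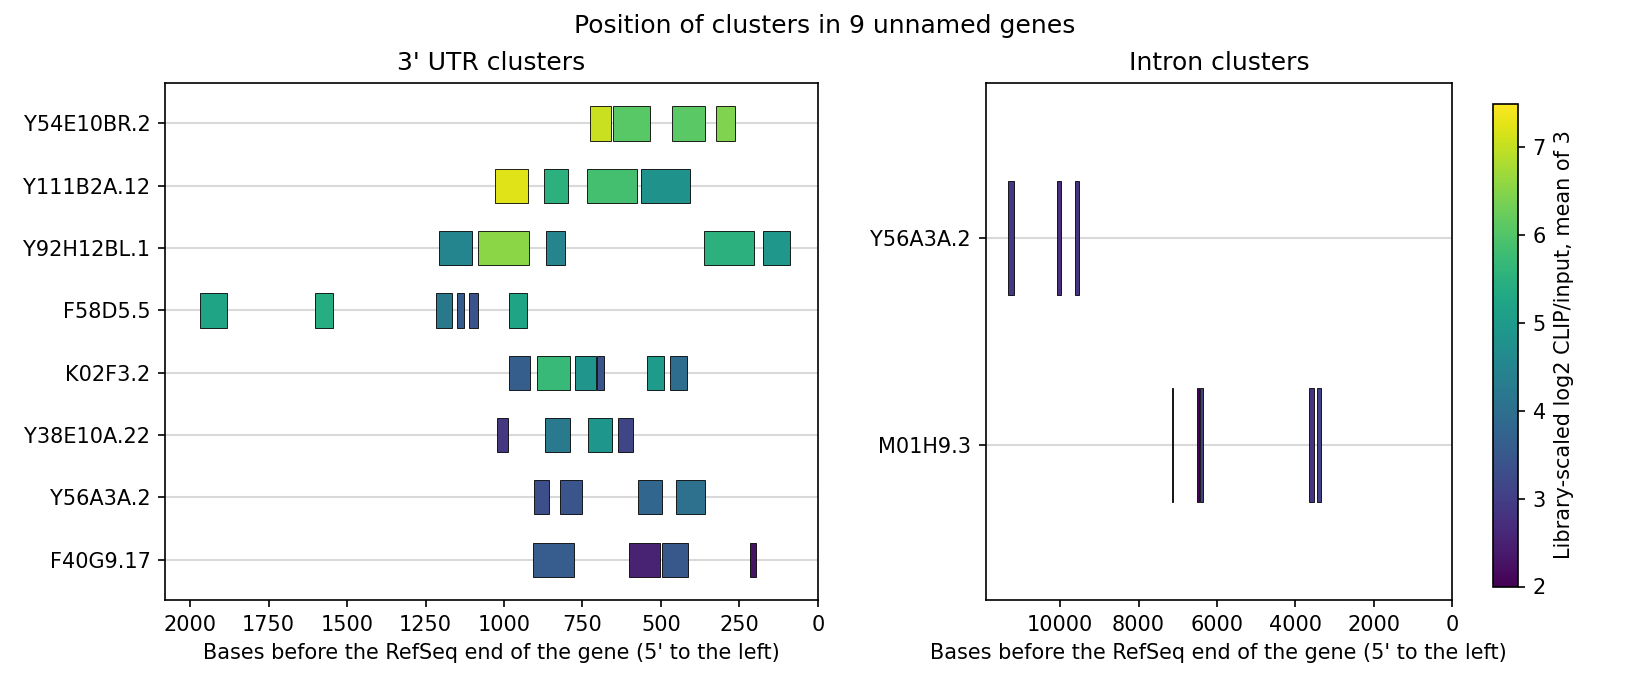
Clusters of the 9 genes by distance in bases before the RefSeq end of the gene, with 3' UTR clusters of 8 genes on the left and intron clusters of 2 genes on the right, coloured by the mean library-scaled log2 ratio of CLIP over Input over 3 replicates. The 3' UTR rows spanned 433 to 1117 bases, and the intron clusters, on a longer axis, reached back 11320 bases in Y56A3A.2.

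Of the 9 genes, 3 encode proteins with an annotated enzymatic or transport role. K02F3.2 (WBGene00019326, chromosome III, plus strand) is annotated as a putative calcium-binding mitochondrial carrier, a membrane protein family that moves metabolites across the inner mitochondrial membrane. Its 6 clusters between positions 850360 and 850928 formed the most closely packed of the 6-cluster and 7-cluster rows, with gaps of 4 to 136 bases and 65.0% of the 568-base span covered. Its second cluster from the 5' end had 156, 47 and 86 CLIP reads in replicates 1, 2 and 3, against 1 Input read in each. The fourth, at 23 bases the shortest, had 38, 7 and 20 CLIP reads, also against 1 in each Input. All CLIP counts of K02F3.2 thus lay above all of its Input counts, and the second cluster was the highest in every CLIP library. The ratio ranged from 3.41 ± 1.64 for the fourth cluster to 5.71 ± 1.26 for the second (SD, n = 3), and the second was above the fourth in 3 of 3 replicates. The remaining clusters had ratios of 3.62 ± 1.90 for the first, 4.87 ± 1.22 for the third, 4.99 ± 1.57 for the fifth and 3.95 ± 1.60 for the last (SD, n = 3). The third (850570 to 850636) had 93, 29 and 41 CLIP reads and the fifth (850799 to 850854) had 108, 22 and 59, each with 1 in every Input. The first, with 75, 10 and 22 CLIP reads, kept a smaller share of its replicate 1 count in replicates 2 and 3 than the second cluster did. The last had 59, 11 and 25. The row ended 416 bases before the RefSeq end of K02F3.2.

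Y92H12BL.1 (WBGene00022363, chromosome I, plus strand) is annotated as a TRAM domain protein and threonylcarbamoyladenosine tRNA methylthiotransferase, an enzyme type that modifies a base next to the tRNA anticodon. Its 5 clusters fell into a group of 3 and a group of 2, between positions 1358436 and 1359553 and 443 bases apart. The second cluster had 820, 176 and 604 CLIP reads against 4, 3 and 2 in Input. The fourth had 857, 114 and 581 against 3, 5 and 9. Each group therefore contained 1 cluster far above its neighbours, and the third cluster, between them, had 112, 30 and 58 CLIP reads. The first (1358436 to 1358540) had 299, 71 and 217, and the last (1359467 to 1359553) had 291, 39 and 134. Ratios ran from 4.48 ± 0.82 for the third cluster and 4.50 ± 1.06 for the first to 6.55 ± 1.67 for the second (SD, n = 3). The fourth stood at 7.68, 3.29 and 5.57, or 5.51 ± 2.20, and the last at 4.94 ± 1.07 (SD, n = 3). The second was thus above the first and the third in 3 of 3 replicates. The last cluster ended 90 bases before the RefSeq end of the gene, closer than in any other of the 9 genes.

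Y56A3A.2 (WBGene00013225, chromosome III, minus strand) is annotated as endopeptidase S2P, the site-2 protease, which in mammals cuts membrane-bound transcription factors within the membrane. It had the most clusters of the 9 genes, and the only mixed row. Its 4 clusters in the 3' UTR lay between positions 11849810 and 11850355, and its 3 intron clusters between 11858982 and 11860772, 8627 bases away. The 2 clusters nearest the 3' end had 33, 20 and 18, and 48, 22 and 18 CLIP reads, against 1 Input read in each library. Their neighbour at 11850202 to 11850273 had 85, 2 and 32 CLIP reads against the same Input counts. It was the highest of the gene in replicate 1 and, together with 1 intron cluster, the lowest in replicate 2. It held 32.8% of the gene's reads in CLIP replicate 1 (95% exact interval 27.1 to 38.9), 2.67% in replicate 2 (0.325 to 9.303) and 20.5% in replicate 3 (14.5 to 27.7). The intervals cover counting error only, here and below. The intron cluster at 11859429 to 11859531 had a like pattern, with 37, 2 and 36 CLIP reads against 1, 1 and 2 in Input. The other intron clusters had 13, 11 and 24 CLIP reads (11860629 to 11860772) and 18, 7 and 13 (11858982 to 11859076), with ratios of 2.87 ± 1.10 and 2.85 ± 1.11 (SD, n = 3). The first cluster of the 3' UTR, at 11850309 to 11850355, had 25, 11 and 15 CLIP reads and a ratio of 3.29 ± 0.98. The last 2 clusters had 3.80 ± 0.74 and 4.03 ± 0.97 (SD, n = 3). Ratios at the 3' end thus varied less between replicates than the 3.43 ± 3.23 (SD, n = 3) of the cluster at 11850202. The gene's pooled ratio was 3.56 ± 1.26 over its 3' UTR clusters and 2.64 ± 1.28 over its intron clusters (SD, n = 3).

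A further 2 genes encode proteins named for repeat domains that serve in protein binding. Y111B2A.12 (WBGene00013735, chromosome III, plus strand) is annotated with WD repeats. Its 4 clusters from position 12622710 to 12623334 left gaps of 14 to 60 bases and covered 79.97% of the span, the highest share among the 9 genes. The first cluster had 907, 118 and 285 CLIP reads against 1, 1 and 2 in Input, and the fourth had 519, 106 and 494 against 8, 6 and 6. The first cluster was the highest in CLIP replicates 1 and 2 and the fourth was the highest in replicate 3. The share of the gene's CLIP reads in the first cluster was 43.2% (95% exact interval 41.1 to 45.4), 32.6% (27.8 to 37.7) and 21.03% (18.9 to 23.3) in replicates 1, 2 and 3, so its shape differed between libraries beyond counting error. With ratios of 9.35, 5.66 and 6.71, this cluster had the highest mean of the 45, at 7.24 ± 1.90 (SD, n = 3). The second cluster (12622869 to 12622943) had 191, 51 and 170 CLIP reads against 1, 2 and 2 in Input. The third (12623003 to 12623163) had 481, 87 and 406 against 2, 2 and 5. The last 3 clusters had ratios of 5.51 ± 1.87, 5.85 ± 1.61 and 4.80 ± 1.64 (SD, n = 3). The fourth was below the first in 3 of 3 replicates, and its Input counts were the highest in the gene.

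F40G9.17 (WBGene00185078, chromosome III, plus strand) is annotated with ankyrin repeats. Its 4 clusters lay between positions 200317 and 201027, with a longest gap of 200 bases. The first had 73, 15 and 58 CLIP reads against 2, 1 and 4 in Input. The second had 45, 3 and 49 against 2, 2 and 2, a ratio of 4.02, -0.64 and 4.17 in replicates 1, 2 and 3. The last, only 19 bases long, had 31, 9 and 16 against 3, 3 and 1. The third, 8 bases after the second, had 28, 6 and 37 against 1 in each Input. Each of the 4 clusters thus had its lowest CLIP count in replicate 2, the CLIP library with the fewest reads over all 636 clusters. None of the 4 clusters had a deposited p-value under 0.05 in replicate 2, whereas all 4 had one in replicates 1 and 3. Over all 636 clusters, 46.7% had one in replicate 2, and 99.8% and 99.5% in replicates 1 and 3. In order from the 5' end, the mean ratios were 3.61 ± 1.03, 2.52 ± 2.73, 3.49 ± 1.85 and 2.27 ± 1.69 (SD, n = 3).

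The other 4 genes are annotated as uncharacterized proteins. Y54E10BR.2 (WBGene00021841, chromosome I, plus strand) is, at 1833 bases, the shortest of the 9 genes, and its 4 clusters between positions 3034041 and 3034503 covered 76.6% of a 462-base span. The second cluster had 1010, 208 and 757 CLIP reads against 5, 6 and 4 in Input. The first, 6 bases before it, had 443, 100 and 230 against 1 in each Input. The third (3034301 to 3034409) had 447, 97 and 328 against 5, 1 and 2. The last (3034442 to 3034503) had 406, 71 and 198 against 1, 1 and 2. No single cluster carried the gene, since even the lowest had 406 CLIP reads in replicate 1. Cluster ratios ran from 6.06 ± 1.88 to 7.05 ± 1.48 (SD, n = 3). The second cluster was the highest in each CLIP library, with 43.8%, 43.7% and 50.0% of the gene's reads. Its ratio of 7.18, 3.89 and 7.12 had the lowest mean of the 4. The third cluster, at 6.01, 5.38 and 6.91, was below it in replicates 1 and 3, so their order is not settled. Input counts of the second cluster were the highest of the 4 over the 3 libraries.

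F58D5.5 (WBGene00010244, chromosome I, plus strand) had 6 clusters spread over 1042 bases, from position 12043231 to 12044273, of which 28.9% was covered. The first had 260, 68 and 114 CLIP reads against 3, 3 and 1 in Input. The last had 105, 39 and 55 against 1 in each Input, and the fifth had 44, 7 and 17 against 1 in each. Counts at both ends of the row were thus above that of the fifth cluster in all 3 CLIP libraries. The second cluster (12043599 to 12043654) had 109, 45 and 68 CLIP reads, the third (12043984 to 12044036) 45, 21 and 30, and the fourth (12044050 to 12044072) 45, 11 and 15. Every Input count of these 3 clusters was 1. Ratios were 5.21 ± 1.69 for the first, 5.40 ± 1.03 for the second and 5.21 ± 1.10 for the last, and 4.22 ± 0.95, 3.57 ± 1.39 and 3.41 ± 1.71 for the third, the fourth and the fifth (SD, n = 3). The first 2 and the last were above the middle 3 in every CLIP library by read count. RefSeq places the snoRNA genes F58D5.11 (12043333 to 12043415) and F58D5.12 (12043825 to 12043914) within the span. Neither shares bases with a listed cluster. snoRNAs are short non-coding RNAs that guide modification of other RNAs and are often processed out of longer transcripts. The row ended 927 bases before the RefSeq end of the gene, the longest such distance among the 3' UTR rows.

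Y38E10A.22 (WBGene00012600, chromosome II, minus strand) had the shortest row, 433 bases from position 12672858 to 12673291. The third cluster from the 5' end had 130, 17 and 51 CLIP reads against 1 in each Input. The second had 62, 16 and 60 against 1, 2 and 1. These middle clusters were above both outer ones in every CLIP library. The first cluster had 31, 5 and 11 CLIP reads against 1 in each Input, and the last had 44, 9 and 15 against 2, 1 and 1. The ratios were 2.87 ± 1.70, 4.24 ± 2.13, 4.88 ± 1.86 and 3.13 ± 1.06 in order from the 5' end (SD, n = 3). In replicate 2 the second cluster was at 1.78 and the last at 1.95, so these clusters were close in ratio there although their CLIP reads were 16 and 9. Their Input counts there were 2 and 1, so the closeness rests on a single Input read. The row ended 588 bases before the RefSeq end.

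M01H9.3 (WBGene00019719, chromosome IV, minus strand) was the gene with intron clusters only. Its 5 clusters lay in a group of 3 and a group of 2, between positions 4471832 and 4475656, with 2706 bases between the groups. The cluster nearest the 3' end had 44, 7 and 80 CLIP reads against 1, 3 and 3 in Input. The cluster at 4474950 to 4475018 had 20, 1 and 16 against 1 in each Input. CLIP replicate 2 was thus at the lowest deposited count in a cluster where the other CLIP libraries were well above Input. The remaining clusters had 26, 3 and 15 CLIP reads (4475612 to 4475656), 27, 5 and 19 (4474849 to 4474935) and 23, 4 and 34 (4472033 to 4472143). Their ratios were 2.68 ± 2.05, 3.06 ± 1.71 and 2.82 ± 1.94 (SD, n = 3). The cluster nearest the 3' end stood at 3.09 ± 2.70 and the one at 4474950 at 2.06 ± 2.85 (SD, n = 3). None of the 5 exceeded 1.10 in replicate 2, while the values of replicates 1 and 3 ran from 3.05 to 4.99. The median ratio over all 636 clusters was also lowest in replicate 2, at 2.1 against 4.905 and 4.28 in replicates 1 and 3. M01H9.3 was the only one of the 9 with more reads in CLIP replicate 3 than in replicate 1, at 140, 20 and 164 reads over its clusters.

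**Figure D2:**
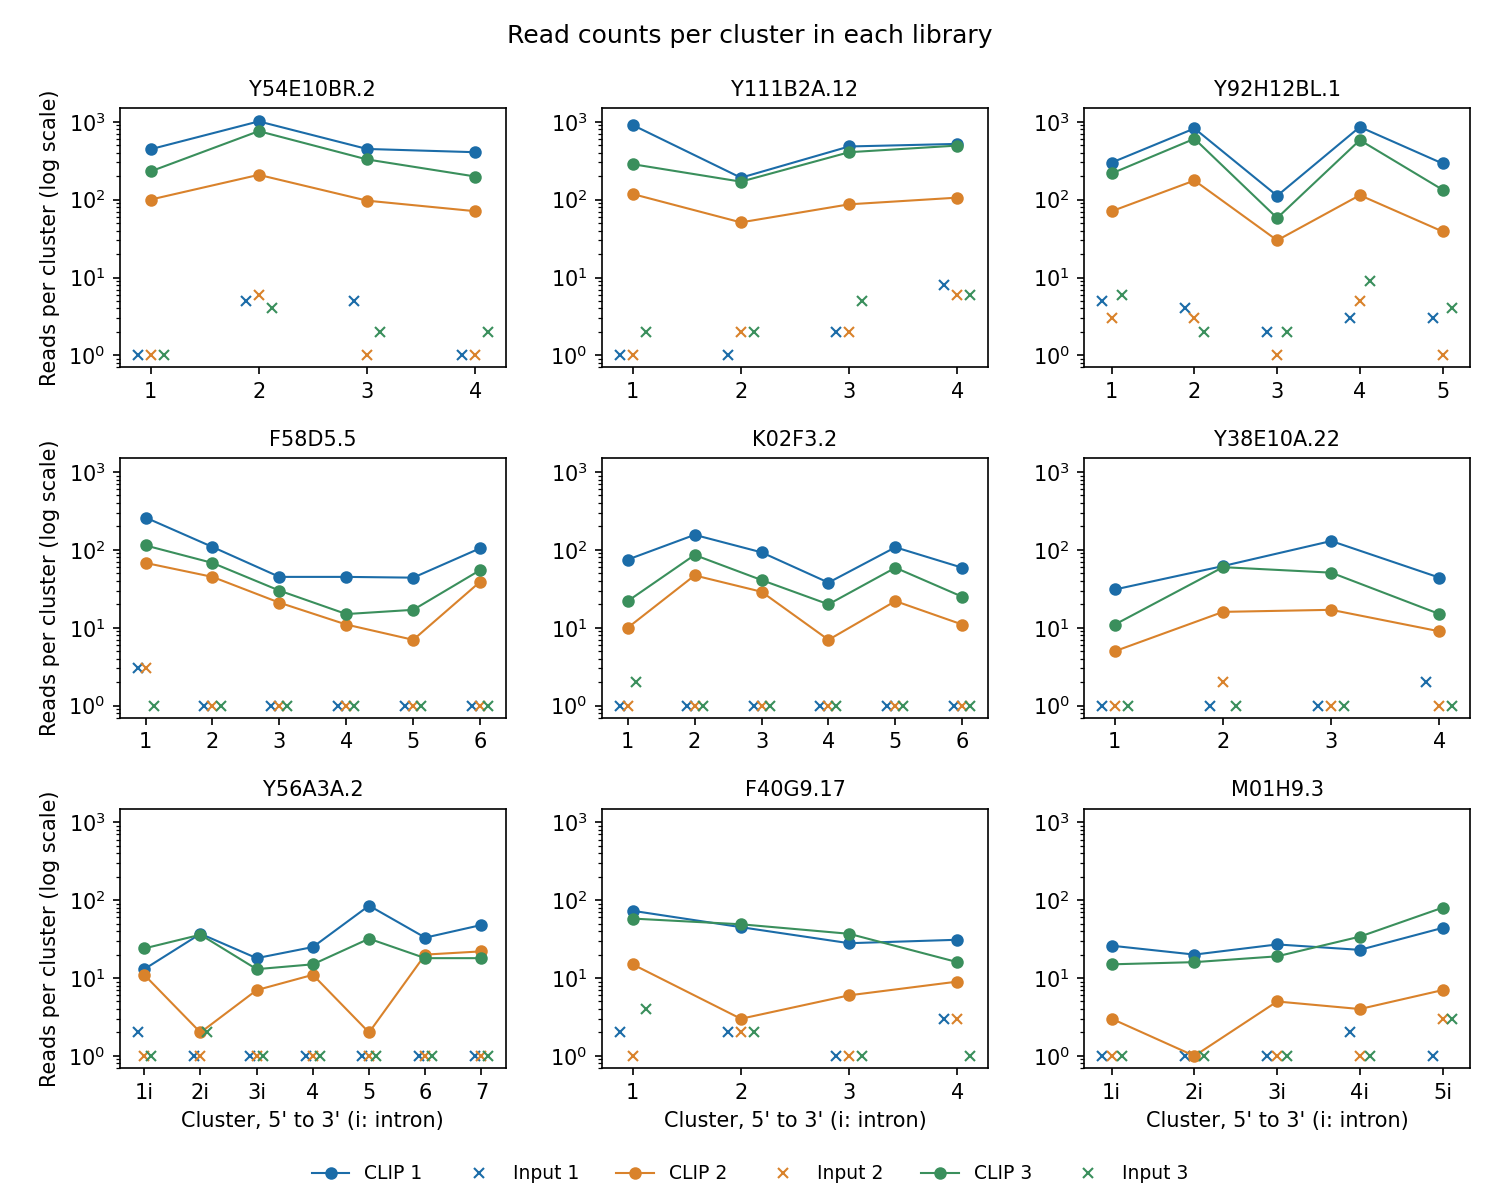
Reads per cluster on a log axis for each of the 9 genes, with clusters numbered from 5' to 3' and intron clusters marked i; circles joined by lines are CLIP libraries and crosses are Input libraries, coloured by replicate. CLIP counts run roughly parallel between replicates in Y54E10BR.2, F58D5.5 and K02F3.2, and cross in Y56A3A.2, where the fifth cluster had 85, 2 and 32 CLIP reads.

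The cluster with the most CLIP reads was the same one in all 3 replicates in 5 of the 9 genes. These were F40G9.17, F58D5.5, K02F3.2, M01H9.3 and Y54E10BR.2. In Y111B2A.12, Y38E10A.22 and Y92H12BL.1 it changed between 2 clusters, and in Y56A3A.2 it was a different cluster in each replicate. Across the clusters of a gene, which share a transcript and a library, Spearman's rho of CLIP counts between replicates was 0.90 to 0.99 in the 6 clusters of F58D5.5 and 0.89 to 0.94 in the 6 of K02F3.2. It was -0.46 to 0.47 in the 7 of Y56A3A.2. In genes with fewer clusters, rho was 0.2 to 0.8 in F40G9.17, 0.4 to 1 in Y111B2A.12 and 0.5 to 0.9 in M01H9.3. It was 0.8 or more in Y38E10A.22, Y54E10BR.2 and Y92H12BL.1.

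Levels per length varied widely between the replicates of each gene, so genes were ordered within libraries. CLIP levels in CPM (counts scaled to the recovered library total) per 100 bases of cluster were 113, 23.5 and 74.1 for Y54E10BR.2, the highest of the 9 in each library. They were 71.7, 13.1 and 48.1 for Y92H12BL.1 and 72.8, 12.7 and 47.1 for Y111B2A.12. The last 2 differed within libraries by a mean of 0.02 ± 0.04 on the log2 scale (SD, n = 3), so their order is not settled. F58D5.5, K02F3.2 and Y38E10A.22 ranked 4, 5 and 6 in every CLIP library. F40G9.17, Y56A3A.2 and M01H9.3 had the lowest levels, with means of 6.52 ± 4.15, 4.54 ± 2.55 and 4.46 ± 3.18 (SD, n = 3), and their order changed between replicates. Input levels covered a narrower range, from 0.36 ± 0.09 for Y56A3A.2 to 0.86 ± 0.13 for Y92H12BL.1 (SD, n = 3) in the same unit. Most Input counts stood at 1, and such a count gives a level set by cluster length and library total.

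Pooled over the clusters of each gene, the library-scaled log2 ratio was 7.0, 4.35 and 6.80 in replicates 1, 2 and 3 for Y54E10BR.2, or 6.05 ± 1.47 (SD, n = 3). Y111B2A.12 followed at 5.51 ± 1.63, Y92H12BL.1 at 5.30 ± 1.45, F58D5.5 at 4.59 ± 1.25 and K02F3.2 at 4.42 ± 1.41 (SD, n = 3). Y38E10A.22 stood at 3.71 ± 1.71, Y56A3A.2 at 3.36 ± 1.21, F40G9.17 at 2.81 ± 1.68 and M01H9.3 at 2.65 ± 2.15 (SD, n = 3). Of the 8 pairs of neighbours in this order, 3 kept it in all 3 replicates, namely Y54E10BR.2 over Y111B2A.12, Y92H12BL.1 over F58D5.5 and K02F3.2 over Y38E10A.22. The ratio was lowest in replicate 2 for all 9 genes, down to 0.17 in M01H9.3 and 0.87 in F40G9.17. In summed reads, Y54E10BR.2 had 4295 CLIP reads against 30 Input reads, a fold of 90.0 (95% exact interval 63.0 to 134), and M01H9.3 had 324 against 20, a fold of 10.2 (6.49 to 16.9).

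**Figure D3:**
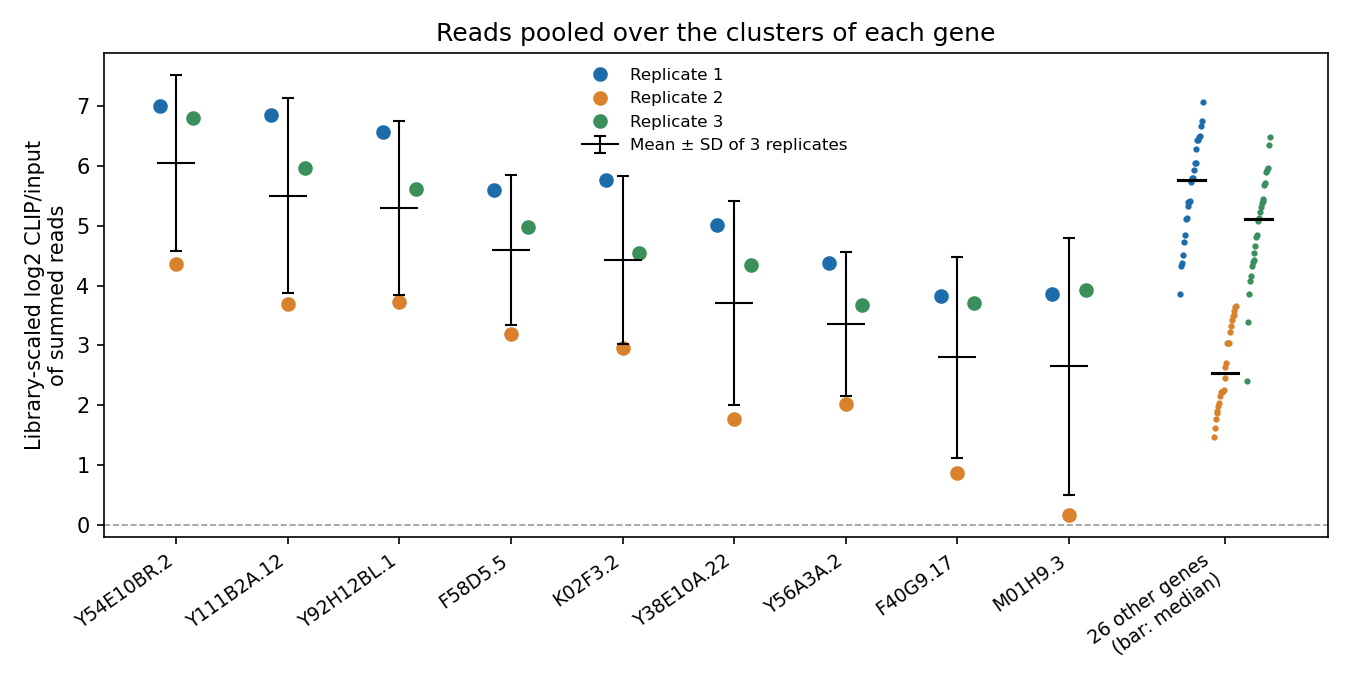
Library-scaled log2 ratio of summed CLIP over summed Input reads for each of the 9 genes, with coloured points for the 3 replicates and black marks for the mean and SD, beside the 26 other genes with 4 or more clusters (small points by replicate, bar at the median). Means run from 6.05 in Y54E10BR.2 to 2.65 in M01H9.3, and replicate 2 is the lowest in each gene.

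In the authors' deposited table, the p-value of CLIP against Input was under 0.05 for all 45 clusters in replicate 1, for 23 in replicate 2 and for all 45 in replicate 3. The shares of all 636 clusters were 99.8%, 46.7% and 99.5%. All 3 replicates had it for 23 of the 45, against a share of 46.1% over all clusters. These 23 comprised all clusters of Y111B2A.12, Y54E10BR.2 and Y92H12BL.1, 4 of F58D5.5, 3 of K02F3.2, 2 of Y56A3A.2 and 1 of Y38E10A.22. M01H9.3 and F40G9.17 had none. The lowest CLIP CPM lay above the highest Input CPM for 41 of the 45 clusters, where 87.9% of all clusters had this. The 41 include the fifth cluster of M01H9.3, whose CLIP and Input CPM in replicate 2 were equal within the error of the recovered totals. The 4 exceptions were the second cluster of F40G9.17, the second of M01H9.3, and the second and the fifth of Y56A3A.2. In replicate 2, the deposited ratio was below 0 in the 4 exceptions and 0 in the fifth cluster of M01H9.3.

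In edgeR's quasi-likelihood test over all clusters, 25 of the 45 passed the filter on low counts and all 25 were called higher in CLIP at an adjusted p under 0.05, where 99.0% of the tested clusters were. A cluster passed mainly through its CLIP counts, and the clusters had been selected on this contrast, so nothing is read from the count. No cluster of M01H9.3 passed the filter. When more clusters entered the test, the count was 42 without CLIP replicate 2 (100% of all tested clusters). Leaving out an Input library gave 42 for replicate 1 (84.0%), 45 for replicate 2 (96.4%) and 41 for replicate 3 (83.2%). It was 25 without CLIP replicate 1 (96.1%) or CLIP replicate 3 (97.5%), 25 with the replicate as a block (98.7%) and 25 with Input counts of 1 set to 0 (96.4%). DESeq2 called all 45 (98.4%), as did edgeR without the filter (98.9%). With TMM scaling, which takes most clusters as unchanged, the count was 5 (6.94%). Without the filter, the median log2 fold was 4.18 over the 45 clusters and 3.89 over all clusters.

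Clusters in 3' UTRs and introns were compared within replicates, on the ratio that had also served to list the clusters. The median ratio of the 37 clusters in 3' UTRs was 5.75, 3.24 and 4.77 in replicates 1, 2 and 3. That of the 8 intron clusters was 4.04, 0.57 and 3.77. The 3' UTR clusters exceeded the intron clusters in 3 of 3 replicates, by 1.80 ± 0.84 on the log2 scale (SD, n = 3; exact sign-flip test, two-sided, p = 0.25, the smallest that 3 replicates allow). Single clusters of both classes overlapped in every replicate. The intron clusters came from 2 genes, and without M01H9.3 the difference was 1.58 ± 0.51 (SD, n = 3). Within Y56A3A.2 alone it was 0.74 ± 0.64 and positive in 2 of 3 replicates.

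**Figure D4:**
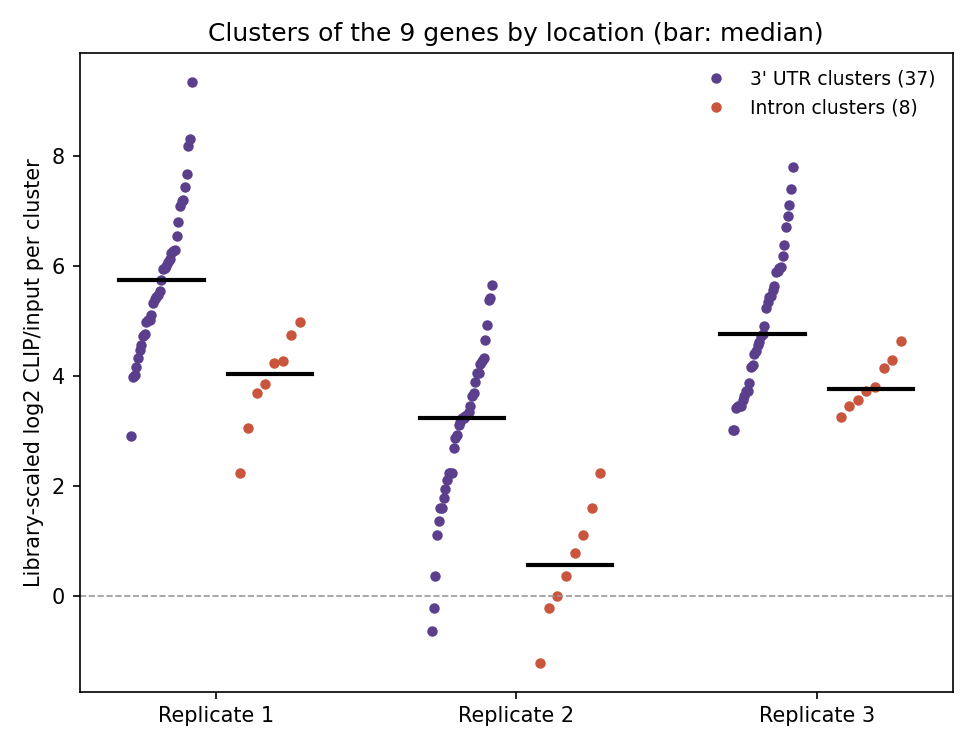
Library-scaled log2 ratio of CLIP over Input for the 37 clusters in 3' UTRs and the 8 in introns of the 9 genes, 1 point per cluster, by replicate; bars are medians. The 3' UTR medians of 5.75, 3.24 and 4.77 lie above the intron medians of 4.04, 0.57 and 3.77, while the points overlap.

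The 9 genes were also compared with the 26 other genes that had 4 or more clusters, 21 of which carry a gene name. The median pooled ratio of the 9 was 5.61, 2.96 and 4.55 in replicates 1, 2 and 3, and that of the 26 was 5.76, 2.55 and 5.11. The 9 minus the 26 gave -0.10 ± 0.49 on the log2 scale (SD, n = 3), with 1 of 3 differences above 0 (exact sign-flip test, two-sided, p = 0.75), so the difference was within the spread of replicates. It was 0.13 without replicate 3. The genes whose pooled ratios over the 3 replicates were closest to the median of the 9 by Euclidean distance were unc-34 at 0.37, Y71F9AL.10 at 0.40 and aps-3 at 0.61. unc-34, which encodes an Enabled-type actin regulator, had ratios of 5.40, 3.22 and 4.40.

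The minimum of 4 clusters is a count and sets no bound on the ratio. Just outside it were 2 genes with a sequence name and 3 clusters in their 3' UTR, H43I07.1 at 5.36 ± 1.41 and Y39G10AR.11 at 3.56 ± 0.66 (SD, n = 3). Just inside it, the 4 members with 4 clusters ranged from 2.81 in F40G9.17 to 6.05 in Y54E10BR.2. The 5 genes listed by a sequence name that had 4 or more clusters but are not among the 9 had every cluster in a 3' UTR. Their pooled ratios were 4.08 ± 1.82 for C35E7.6 with 7 clusters, 5.10 ± 1.79 for Y65B4A.6 with 5, and 4.14 ± 1.36, 3.60 ± 1.16 and 4.71 ± 1.96 for Y71F9AL.10, Y71F9B.6 and Y75B8A.7 with 4 each (SD, n = 3). These values lay inside the range of the 9 genes.

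Chromosome III held 4 of the 9 genes (F40G9.17, K02F3.2, Y56A3A.2 and Y111B2A.12), chromosome I held 3, and chromosomes II and IV held 1 each. Of the other 26 genes, 9 were on chromosome I, 8 on III, 5 on V, 3 on II, 1 on X and 0 on IV. Taking the last RefSeq gene as the end of a chromosome, the rows lay at a median of 13.99% of its length from the nearer end, from 1.46% for F40G9.17 to 25.6% for M01H9.3. The median of the other 26 was 11.6%. Within 25% of an end lay 8 of the 9 genes and 24 of the 26. The share of all genes lying there was not determined, so nothing is read from these counts. The next RefSeq gene lying wholly downstream of the gene end, on either strand, was 1 base from F58D5.5 (F58D5.9) and 13 bases from M01H9.3 (M01H9.5). Any gene overlapping the gene end was not considered. For the other 7 genes the distance was 1026 bases (Y111B2A.12, next to gtf-2A2) to 17281 bases (Y54E10BR.2, next to ztf-23).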

How the data were processed

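Per the submitters' processing notes, fastp 0.21.0, STAR 2.7.10b and the builds ce11 and WBcel235 were used. Per the file headers, CLIPPER called the clusters. For each cluster the authors deposited unscaled read counts, log2 ratios and a p-value. The log2 column used here is named entropy by the authors. For the reproducible clusters, the column of that name was found to be log2 of CLIP over Input counts scaled by library totals (largest deviation 0.000502). For the uniquely annotated clusters it is deposited with fewer decimals. Totals were recovered by fitting the Yates-corrected chi-square to the deposited scores, of which 130 of 130, 73 of 76 and 116 of 116 were met, and the recovery was tested on simulated scores.

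The 9 genes and all comparisons were chosen with earlier results of these data known. CLIP and Input were compared with edgeR 4.0.16 (glmQLFTest, filterByExpr, recovered totals, no replicate block, Benjamini-Hochberg, threshold 0.05), which was tested on simulated counts. Of 636 clusters, 389 passed the filter and entered the test. DESeq2 1.42.0 served as an alternative. Same-numbered libraries share a lysate per the labels' protocols; their deviations correlated at 0.28, 0.12 and 0.01. Gene ends, snoRNA positions and symbols are those of RefSeq on WBcel235. All clusters of the 9 genes are described; other genes are named by count of clusters or distance in ratio. Coordinates are as deposited, counting from 0 or 1 (unstated). Sequences were not used here.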

Additional observations from a re-analysis of the deposited data

Results flagged for a closer look

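One reproducible cluster inside the row of F58D5.5 is outside the uniquely annotated table and so entered none of the comparisons above. It lay at 12043803 to 12043832 on the plus strand of chromosome I, and is annotated to both F58D5.5 and the snoRNA F58D5.12. It had 44, 12 and 30 CLIP reads against 2, 1 and 1 in Input, a library-scaled log2 ratio of 3.60 ± 1.10 (SD, n = 3), above 0 in 3 of 3 replicates. The listed clusters of F58D5.5 ranged from 3.41 to 5.40 in this measure. RefSeq starts the snoRNA at 12043825, so most of the cluster lies before it and only the 3' part overlaps it. The counts do not separate reads of the messenger RNA from those of the snoRNA.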

How the results depend on the processing

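The count of 25 clusters called higher in CLIP (99.0% of all tested clusters) was 25 with the replicate block (98.7%). It was also 25 with Input counts of 1 set to 0 (96.4%). It was 45 with DESeq2 (98.4%) and 45 without the filter (98.9%), since all 45 were then tested. With 1 library left out it was 25 to 45 (83.2% to 100% of all tested clusters). The clusters had been selected on this contrast, so nothing is read from these counts. Under TMM scaling, which centres these selected clusters, the count was 5 (6.94% of all tested clusters). The median log2 fold over all tested clusters then went from 4.54 to -0.17, and 27 of them were called higher and 41 lower. The 9 minus the 26 other genes ranged from -0.36 to 0.13 with 1 replicate left out, and so changed sign. The median gap of 55.5 bases over all neighbouring pairs was 159 from start to start and 473.5 in introns. The excess of 3' UTR over intron clusters was 1.36 to 2.19 with 1 replicate left out. As it was positive in every replicate, these means could not turn negative. Within Y56A3A.2 alone the excess was 0.74 ± 0.64 (SD, n = 3), positive in 2 of 3 replicates. Unpaired, the exact permutation p of the excess over all clusters of the 9 genes was 0.30. Without replicate 2, the pooled ratio of M01H9.3 went from 2.65 to 3.89 and that of F40G9.17 from 2.81 to 3.77. Of 45 pooled ratios of single genes under alternatives that kept all replicates, 42 moved by less than 1 SD; the exceptions, with Input counts of 1 set to 0, were F58D5.5 at 6.31, K02F3.2 at 6.77 and Y56A3A.2 at 5.42. Input counts of 1 limit every ratio here.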
